A study of Rattus norvegicus with 24 samples.

Results

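The transcripts of 9 genes of myelin and of the cells that make it, Mbp, Mobp, Mog, Mag, Cnp, Mal, Cldn11, Klk6 and Ermn, were followed in the nucleus accumbens (NAc), a part of the ventral striatum, of male rats given lipopolysaccharide (LPS), heroin or saline. The genes were chosen by symbol, and all 9 were found among the 32545 genes listed. RNA-seq values came from 24 libraries, in 6 groups of 4. The rats were adult male Sprague Dawley animals, 8 weeks old on arrival. In the injection experiment, each rat had 5 intraperitoneal injections of saline or of LPS at 250 µg/kg, spread over 2 weeks, and later daily injections of saline or heroin for 5 days, with heroin rising from 1 to 5 mg/kg. Named for what was given first and then second, the injected groups were Saline-Saline, Saline-Heroin, LPS-Saline and LPS-Heroin. By the labels these rats were killed 1 h after the last injection, and by the study's methods within 1 h of a brief locomotor test that followed it. The labels place 1 week between LPS and heroin, and the study's methods place 4 days. In the self-administration (SA) experiment, rats with a jugular catheter took saline (Saline-SA) or heroin at 0.075 mg/kg per infusion (Heroin-SA) in 10 daily sessions of 6 h and were killed directly after the last session. Rats that took saline or heroin themselves were housed alone on a reversed light cycle, and injected rats were housed in pairs on a normal one. No group had a genetic change, and all rats were male.

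Myelin is the layered membrane that oligodendrocytes wrap around axons, and it speeds the conduction of impulses. Its making needs structural proteins that hold the layers together, surface proteins that face the axon or the outside, and enzymes and cytoskeletal proteins of the oligodendrocyte itself. Mbp, the myelin basic protein, Mobp, a further basic protein of oligodendrocytes, and Mal, a proteolipid of lipid rafts, belong to the first kind. Mag, an adhesion molecule next to the axon, Mog, an immunoglobulin-domain protein on the outer face, and Cldn11, the claudin of myelin tight junctions, belong to the surface and junction proteins. Cnp is a phosphodiesterase of non-compact myelin, Ermn is a cytoskeletal protein of mature oligodendrocytes, and Klk6 is a secreted serine protease that these cells make. In the NAc the cell bodies of oligodendrocytes lie among medium spiny neurons and in fiber bundles that pass through or beside the tissue.

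In the coordinates listed with the values, of build rn6 per the submitters' processing notes, the genes lay at separate places in the genome. Mbp (ENSRNOG00000016516) lay at chr18:79326738-79437310 on the plus strand, Mobp (ENSRNOG00000018700) at chr8:128824508-128850358 on the plus strand and Mal (ENSRNOG00000015445) at chr3:120209647-120233655 on the minus strand. Mag (ENSRNOG00000021023) lay at chr1:89345429-89360733 on the minus strand, Mog (ENSRNOG00000000775) at chr20:2004052-2014286 on the plus strand and Cldn11 (ENSRNOG00000010263) at chr2:115823538-115836846 on the minus strand. Cnp (ENSRNOG00000017496) lay at chr10:88490798-88497356 on the plus strand, Klk6 (ENSRNOG00000031927) at chr1:99762253-99769488 on the plus strand and Ermn (ENSRNOG00000021472) at chr3:44068057-44086022 on the minus strand. All 9 were listed as protein coding, and each value covers the whole gene, with no exon or isoform apart. Mog overlapped Zfp57 on the opposite strand, which had a mean of 9.70 FPKM. Ermn overlapped Galnt5 on the opposite strand, at 0.0176 FPKM, and Mbp overlapped AC097762.1, which was listed at 0. Since the sources used here do not say whether reads were counted by strand, the values of Mog are uncertain by what Zfp57 may add.

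The 9 genes moved together from rat to rat, as described further on, so promoters are shown for those that shared a run of letters or held an unusual number of matches. In the RefSeq annotation of build GRCr8, which is not the build of the values, windows from 250 bases before to 50 bases after the gene start were held for 7 of the 9 genes, in 8 windows, with 2 for Mbp. Mog and Ermn had no entry. The letters ACAAAG, a binding motif of SOX factors such as the oligodendrocyte factor Sox10, were searched on both strands and occurred in 5 of the 8 windows and in 18.8% of all 33469 promoters. The Mobp promoter held 8 matches, between 242 and 120 bases before the start, and only 7 of all promoters, or 0.0209%, held 5 or more. It is printed 5′ to 3′ with these matches in capitals, all 8 of them on the opposite strand as CTTTGT.
Mobp (chr8:128746982-128747281, plus strand): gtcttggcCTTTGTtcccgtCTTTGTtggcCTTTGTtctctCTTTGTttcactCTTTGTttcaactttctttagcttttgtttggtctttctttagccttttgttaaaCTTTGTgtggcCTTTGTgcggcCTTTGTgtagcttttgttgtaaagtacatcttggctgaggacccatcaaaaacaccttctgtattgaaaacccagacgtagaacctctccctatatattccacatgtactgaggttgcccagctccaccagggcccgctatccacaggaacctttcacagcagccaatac
The windows of Mag, Cnp and Mal shared an unbroken run of 11 letters, CCTGGGTGCCA, found by a search for the longest run common to 3 or more of the genes, and 19 of all promoters (0.0568%) held it. It is in capitals in the following windows, as its reverse complement.
Mag (chr1:95290995-95291294, minus strand): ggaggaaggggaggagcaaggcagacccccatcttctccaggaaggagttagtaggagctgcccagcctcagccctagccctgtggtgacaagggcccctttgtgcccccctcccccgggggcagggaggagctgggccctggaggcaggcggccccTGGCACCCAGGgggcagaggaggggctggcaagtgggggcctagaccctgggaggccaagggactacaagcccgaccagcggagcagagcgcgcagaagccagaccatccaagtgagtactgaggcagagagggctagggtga
Cnp (chr10:86011254-86011553, plus strand): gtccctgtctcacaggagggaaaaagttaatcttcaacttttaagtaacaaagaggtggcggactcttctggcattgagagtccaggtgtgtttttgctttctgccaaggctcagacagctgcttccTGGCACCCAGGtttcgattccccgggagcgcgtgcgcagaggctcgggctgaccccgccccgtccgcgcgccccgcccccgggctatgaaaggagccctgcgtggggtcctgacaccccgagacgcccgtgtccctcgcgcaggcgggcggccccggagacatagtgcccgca
Mal (chr3:135341374-135341673, minus strand): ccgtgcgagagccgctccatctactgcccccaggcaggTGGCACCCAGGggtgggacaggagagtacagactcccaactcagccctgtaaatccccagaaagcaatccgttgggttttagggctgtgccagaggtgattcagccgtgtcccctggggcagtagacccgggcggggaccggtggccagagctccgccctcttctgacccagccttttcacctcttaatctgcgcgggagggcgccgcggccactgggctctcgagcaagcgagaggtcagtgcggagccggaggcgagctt
The run began 93 bases before the start of Mag, 123 before that of Cnp and 212 before that of Mal. It overlapped a match of CTGGNAC, the letters bound by the oligodendrocyte factor Myrf, in Mag and Cnp and not in Mal. CTGGNAC on either strand occurred in 5 of the 8 windows against 18.2% of all promoters, and the E-box CAGCTG in 2 of 8 against 15.1%. The shared run and the Mobp window were picked from these same sequences. Their rarity among all promoters is therefore a description and no test of a shared feature. These matches describe letters, and binding was not measured.

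Each library held 12312878 to 18850240 reads on genes, and replicates of a group correlated at 0.939 to 0.962 across genes. Levels are in FPKM, fragments per length of gene and per fragment in the library, and are therefore comparable between genes. Of libraries that stood apart, Saline-Saline replicate 1 had a summed level of 345 FPKM over 5 genes of choroid plexus and ependyma, the lining of the ventricles, against 1.36 to 7.30 in the other Saline-Saline libraries. The same library had the highest summed level of 7 septal and ventral forebrain genes, 110 FPKM. LPS-Heroin replicate 4 had 31.1 FPKM of choroid plexus and ependyma genes, against 1.77 to 2.83 in the rest of its group. Its septal and ventral forebrain sum, 53.2 FPKM, was also the highest of its group. Medium spiny neuron genes summed to 1228 to 3266 FPKM over all libraries, so the labelled tissue was present in each, and genes of cortical glutamatergic neurons to between 47.1 and 441 FPKM. Mitochondrial genes took 7.78% ± 0.820 (SD, n = 4) of the reads in Saline-Saline, between 8.13% and 8.31% in the other injected groups, 12.9% ± 2.46 (SD, n = 4) in Saline-SA and 10.8% ± 0.743 (SD, n = 4) in Heroin-SA.

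All 9 genes were well expressed. Over the 24 libraries Mbp had a mean of 2131 FPKM (1218 to 2954), rank 12 among all genes listed, and was read between 65556 and 160389 times per library. Cnp followed with 379 FPKM, then Cldn11 with 277, Mal with 240, Mobp with 203, Mag with 162 and Mog with 108 FPKM. Ermn had a mean of 70.9 FPKM, and Klk6 was the lowest with 28.0 FPKM and 269 to 893 reads per library. Klk6 therefore has the largest counting error of the 9. Over all 6 groups the highest library had 2.04 (Cldn11) to 3.05 (Ermn) times the level of the lowest. Prx, a protein of Schwann cells, which make peripheral myelin, was low by comparison, at 0.390 to 0.557 FPKM in the group means.

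The mean of Saline-Saline was the highest of the 6 groups for every one of the 9 genes. Klk6 had 47.4, 42.1, 28.8 and 42.9 FPKM in the 4 Saline-Saline libraries, 39.5, 26.0, 22.8 and 23.7 in LPS-Saline and 21.0, 27.7, 23.3 and 41.1 in Saline-Heroin. It had 27.9, 29.5, 35.5 and 24.4 FPKM in LPS-Heroin, 22.1, 24.5, 22.7 and 23.0 in Saline-SA and 16.7, 16.5, 22.1 and 20.8 in Heroin-SA. The Saline-Saline values lay above all Saline-SA and Heroin-SA values, and overlapped with those of the other injected groups. By group mean, Klk6 ranked from 40.3 ± 8.03 FPKM (Saline-Saline, SD, n = 4) through 29.3 ± 4.63 in LPS-Heroin, 28.3 ± 8.99 in Saline-Heroin and 28.0 ± 7.81 in LPS-Saline, then 23.1 ± 1.04 in Saline-SA and 19.0 ± 2.85 in Heroin-SA. Only the gaps below Saline-Saline and below Saline-SA exceeded the larger of the 2 SDs beside them (1.37 and 1.42 times).

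Mbp was read at 2954, 2946, 1903 and 2212 FPKM in Saline-Saline, at 2624, 1648, 1597 and 1648 in LPS-Saline and at 1218, 1816, 1582 and 2638 in Saline-Heroin. It was at 2111, 2181, 2365 and 1439 FPKM in LPS-Heroin, at 2286, 2083, 2341 and 2520 in Saline-SA and at 2199, 2037, 2207 and 2582 in Heroin-SA. Replicates 1 and 2 of Saline-Saline were the highest of all, and a library of LPS-Saline and one of Saline-Heroin stood far above the other 3 of their groups, so all groups overlapped. The order of means was Saline-Saline (2504 ± 531 FPKM, SD, n = 4), Saline-SA (2307 ± 180), Heroin-SA (2256 ± 231), LPS-Heroin (2024 ± 404), LPS-Saline (1879 ± 497) and Saline-Heroin (1814 ± 602), and no 2 neighbours in it differed by more than their SDs. For Mbp the SA groups thus ranked next after Saline-Saline, whereas for Mog, Mag, Cnp, Mal, Cldn11, Klk6 and Ermn they were the lowest.

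Mag, the adhesion molecule beside the axon, had 245, 255, 172 and 180 FPKM in Saline-Saline and 143, 128, 122 and 113 in Saline-SA, with no overlap. The other groups lay at 217, 167, 146 and 140 FPKM (LPS-Saline), 124, 163, 156 and 221 (Saline-Heroin), 191, 189, 194 and 132 (LPS-Heroin) and 114, 113, 115 and 149 (Heroin-SA). Ermn had 107, 97.2, 70.4 and 80.2 FPKM in Saline-Saline and 49.4, 39.5, 60.6 and 42.8 in Saline-SA, again without overlap. In LPS-Saline it had 120, 69.2, 81.6 and 72.3 FPKM, in Saline-Heroin 48.2, 71.1, 70.8 and 95.1, in LPS-Heroin 90.3, 93.0, 70.1 and 54.9, and in Heroin-SA 45.2, 55.7, 39.5 and 77.8. These groups all overlapped with Saline-Saline. Cldn11, the tight junction protein, had 399, 403, 261 and 301 FPKM in Saline-Saline against 244, 224, 268 and 218 in Saline-SA, where the highest Saline-SA library passed the lowest Saline-Saline library. Cnp had 524, 546, 385 and 410 FPKM in Saline-Saline, 333, 298, 442 and 335 in Saline-SA and 235, 271, 284 and 302 in Heroin-SA. Its Heroin-SA libraries all lay below those of Saline-Saline, and the highest of them passed the lowest Saline-SA library. Mobp ran from 135 to 303 FPKM over all libraries, Mog from 68.2 to 148 and Mal from 170 to 379, with group means of 180 to 234, 85.8 to 129 and 221 to 283 FPKM, in which no 2 neighbouring groups differed by more than the larger SD.

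**Figure D1:**
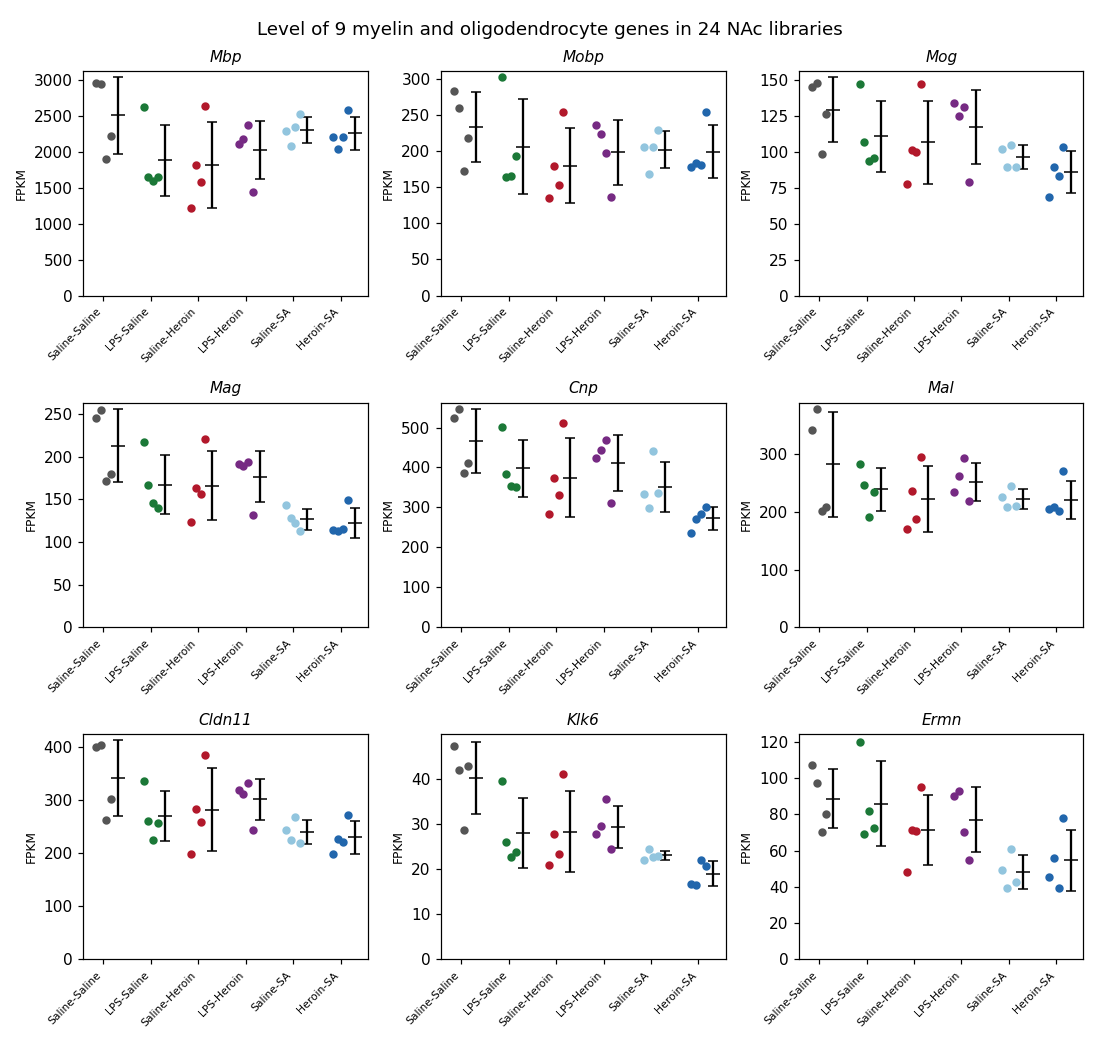
Level of each of the 9 genes in FPKM (vertical axis, linear, from 0) in the 6 groups (horizontal axis). Points are the 4 libraries in the order of their replicate numbers, and the black mark with its bar is the group mean ± SD. Saline-Saline has the highest mean in every panel, with Klk6 at 40.3 FPKM there and at 23.1 FPKM in Saline-SA.

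To ask whether a past immune challenge, heroin or both moved these genes, groups were compared in pairs with limma on log2(FPKM + 0.1). A gene was called where the unadjusted p was at most 0.05 and the difference at least 1.3-fold. Adjusted p-values are Benjamini-Hochberg values over all genes tested, and all 9 genes passed the filter on low values in every comparison. Replicates are separate rats per the labels. The 9 genes varied together from rat to rat (median pairwise r of 0.905 in the 16 injection libraries, group means removed). Differences of 1 sign in all 9 are therefore not 9 separate observations. In whole tissue, fewer oligodendrocytes and less myelin RNA per oligodendrocyte cannot be told apart.

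After a past series of LPS injections without heroin, all 9 differences from Saline-Saline were below 0, and Klk6 alone passed the limits. In LPS-Saline against Saline-Saline the log2 fold change of Klk6 was -0.54 (SE 0.20, limma adjusted p = 0.729, exact permutation p = 0.0571), or 31.1% lower, and 1 of the 9 genes was thus called lower where 1.15% of 15119 genes tested were called lower and 1.21% higher. The differences of the others ran from -0.06 (Ermn, SE 0.19) to -0.42 (Mbp, SE 0.20), and the median of the 9 was -0.23 log2 beside 0.007 over all genes. No gene of the transcriptome had an adjusted p under 0.05 here by limma, with 1002 at an unadjusted p under 0.05. The call of Klk6 was lost without any single one of Saline-Saline replicates 1, 2 and 4 and LPS-Saline replicates 2, 3 and 4 (log2 -0.45 to -0.51). Without Saline-Saline replicate 3, Mbp (-0.55), Mag (-0.44) and Cldn11 (-0.45) were called as well, and without LPS-Saline replicate 1 these genes and Mobp (-0.40).

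Heroin injections without LPS gave differences of the same sign. In Saline-Heroin against Saline-Saline Klk6 was lower by 31.0% (log2 -0.54, SE 0.22, limma adjusted p = 0.750, exact permutation p = 0.0571), the 1 call among the 9 genes, beside 1.67% of 15143 genes called lower and 1.40% called higher. Mbp followed at -0.50 (SE 0.24, limma adjusted p = 0.751) and Mobp at -0.39 (SE 0.21), and the median was -0.33 log2 beside 0.002 over all genes. No gene passed an adjusted p of 0.05 by limma, and 995 had an unadjusted p under 0.05. Saline-Heroin replicate 4 stood above the rest of its group for all 9 genes, and without it 8 of the 9 were called lower, all but Mal, with Mbp at -0.70 and Cnp at -0.49. Without Saline-Saline replicate 3, Mbp, Mobp and Mag were called beside Klk6 (-0.62, -0.53 and -0.46), and without any other library none of the 9 was called, with Klk6 at -0.41 to -0.54.

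Rats with both LPS and heroin also had 9 differences below 0. In LPS-Heroin against Saline-Saline the 9 differences ran from -0.11 (Mal, SE 0.21) to -0.45 (Klk6, SE 0.16, limma adjusted p = 0.347, exact permutation p = 0.0857), with a median of -0.21 log2 beside 0.001 over all genes. Klk6 was the 1 gene called, 26.7% lower, beside 2.44% of 15134 genes called lower and 2.99% called higher. Again no adjusted p was under 0.05 by limma, with 1704 genes at an unadjusted p under 0.05. Without Saline-Saline replicates 1, 2 or 4 or LPS-Heroin replicates 1 or 4, each left out alone, Klk6 was at -0.36 to -0.43 and not called. These 3 comparisons use the same 4 Saline-Saline rats, of which replicates 1 and 2 had the highest Mbp levels in the series, so the values against Saline-Saline are not separate measurements of a direction.

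**Figure D2:**
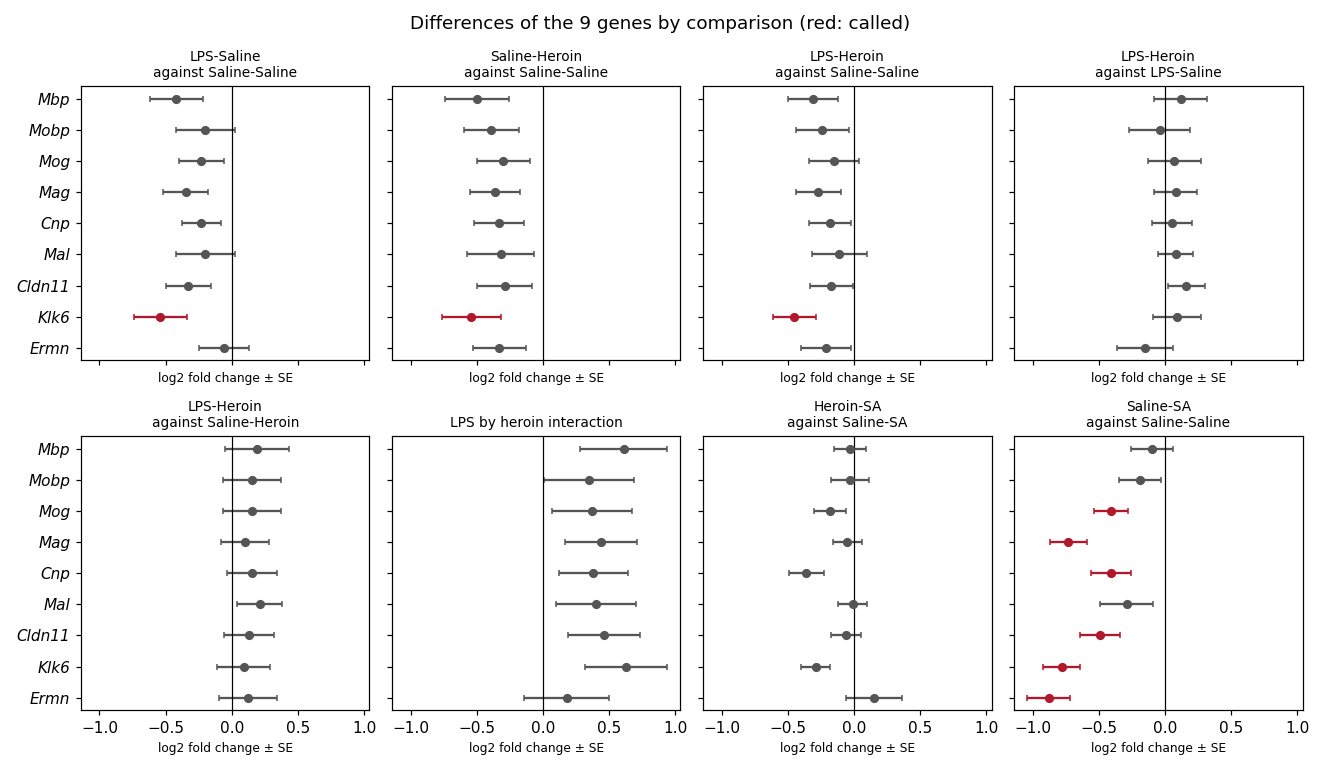
Log2 fold change of each gene with its standard error (horizontal axis) in 8 comparisons, from limma on log2(FPKM + 0.1), and red where called. All 9 genes lie left of 0 against Saline-Saline in the 3 injected groups with Klk6 alone in red, and 6 are red in Saline-SA against Saline-Saline.

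Between the treated injected groups no difference passed. In LPS-Heroin against LPS-Saline, the effect of heroin in rats with past LPS, none of the 9 was called, beside 1.15% of 15069 genes called lower and 1.14% higher. The differences ran from -0.15 (Ermn, SE 0.21) to 0.16 (Cldn11, SE 0.14), and Klk6 had 0.09 (SE 0.18). In LPS-Heroin against Saline-Heroin, the effect of past LPS in heroin rats, all 9 differences were above 0, from 0.09 (Klk6, SE 0.20) to 0.21 (Mal, SE 0.17), and none was called, beside 0.999% of 15121 genes called lower and 1.20% higher. By limma 0 genes of all had an adjusted p under 0.05 in either comparison, and 693 and 637 had an unadjusted p under 0.05.

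Over the 16 injection libraries, neither main effect called any of the 9 genes. The LPS effect was between -0.22 (Klk6, SE 0.17) and 0.03 (Ermn, SE 0.16), beside 0.873% of 15113 genes called lower and 0.900% higher. The heroin effect was below 0 for all 9, between -0.07 (Cldn11, SE 0.14) and -0.24 (Ermn, SE 0.16), beside 1.39% called lower and 1.06% higher. The LPS by heroin interaction, the difference of LPS-Heroin from what adding the separate effects would give, was above 0 for all 9 and called for none, beside 1.05% called lower and 1.26% higher. It was 0.63 for Klk6 (SE 0.31, limma adjusted p = 0.992), 0.61 for Mbp (SE 0.33, limma adjusted p = 0.992) and 0.18 for Ermn (SE 0.32), with a median of 0.40 log2 against -0.005 for all genes. Limma gave an adjusted p under 0.05 to 0 genes in these 3 tests, with 1034, 1231 and 607 at an unadjusted p under 0.05. Without Saline-Heroin replicate 4, 5 of the 9 passed the limits in the interaction (Klk6 0.82, Mbp 0.81, Cldn11 0.62, Mag 0.59, Cnp 0.54). Mbp and Klk6 also passed without Saline-Saline replicate 3, LPS-Saline replicate 1 or LPS-Heroin replicate 4, in the first case with Cldn11 and in the others with Mag.

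Heroin that rats took themselves left most of the 9 genes near their level in Saline-SA. In Heroin-SA against Saline-SA none was called, beside 2.41% of 15024 genes called lower and 3.03% higher. Cnp, the phosphodiesterase, had 273 ± 28.3 FPKM (SD, n = 4) in Heroin-SA and 352 ± 62.6 in Saline-SA. Its difference of -0.36 log2 (SE 0.13, limma adjusted p = 0.371, exact permutation p = 0.0571) passed the limit on p and not the 1.3-fold limit, and so did that of Klk6 (-0.29, SE 0.11, limma adjusted p = 0.380, exact permutation p = 0.0571). With each of the 8 libraries left out in turn, the difference of Cnp ran from -0.43 to -0.24. It was called in 2 of these fits, without Saline-SA replicate 2 (-0.43) or Heroin-SA replicate 4 (-0.41). The highest Cnp level of the Saline-SA libraries, 442 FPKM, was that of replicate 3. Mbp (-0.03, SE 0.12), Mobp (-0.03, SE 0.14) and Mal (-0.01, SE 0.11) lay next to 0 and Ermn above it (0.15, SE 0.21), and the median was -0.05 log2 beside 0.009 over all genes. No adjusted p was under 0.05 by limma, with 1725 genes at an unadjusted p under 0.05. Cortical gene levels summed to 47.1 FPKM in Heroin-SA replicate 4 against 304 to 385 in the other 3 libraries of its group, and this library had the highest level in its group of all of the 9 genes but Klk6. In Saline-SA replicate 3 the cortical sum was 53.3 FPKM against 186 to 249 in the rest of its group. The mean deviation of the 9 genes from the group mean was highest in that library among the Saline-SA libraries (0.13 log2). The part of such differences in tissue in the result was not tested.

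The control rats of the 2 experiments differed in many more genes, with 3584 at an adjusted p under 0.05 by limma. In Saline-SA against Saline-Saline 6 of the 9 genes were called lower, namely Ermn, Klk6, Mag, Cldn11, Mog and Cnp, where 14.3% of 15150 genes were called lower and 8.46% higher. Ermn was 45.7% lower (log2 -0.88, SE 0.16, limma adjusted p = 0.00604), Klk6 41.7% lower (-0.78, SE 0.14, adjusted p = 0.00539), Mag 39.9% lower (-0.73, SE 0.14, adjusted p = 0.00733) and Cldn11 29.0% lower (-0.49, SE 0.15, adjusted p = 0.0398), all by limma. These 4 of 9 passed an adjusted p of 0.05, as did 13.9% of all genes in the lower direction. Mog (-0.41, SE 0.13, limma adjusted p = 0.0513) and Cnp (-0.41, SE 0.15, adjusted p = 0.0871) did not. Mal (-0.29, SE 0.20), Mobp (-0.19, SE 0.16) and Mbp (-0.10, SE 0.16) were not called. Leaving out any single library kept Ermn, Klk6, Mag and Cldn11 called. Mog and Cnp were not called without Saline-Saline replicate 1, the library with the most choroid plexus RNA (-0.35 and -0.34), or replicate 2 (-0.34 and -0.32). With equal library medians they were not called either (-0.34 and -0.34). Nor were they called without Saline-SA replicate 2 (-0.37 and -0.33) or 4 (-0.37 and -0.39), or Cnp without Saline-SA replicate 1 (-0.38).

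The experiments differed in housing, light cycle, surgery, time of death and procedure, and these cannot be told apart. Medium spiny neuron genes were higher in Saline-SA, with 7 of 10 called higher and summed levels of 1914 to 3266 FPKM against 1228 to 2498 in Saline-Saline. Genes called lower had a median length of 2397.5 bases, those called higher 2098 and all tested 2163.5. The part of mitochondrial share, tissue and gene length in the result was not tested.

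The composition of the myelin transcripts differed between the control groups as well. Mbp made up 58.2% ± 0.377 (SD, n = 4) of the summed FPKM of the 9 genes in Saline-Saline, 55.3% to 56.2% in the other injected groups on average, 63.8% ± 2.17 in Saline-SA and 65.2% ± 1.78 in Heroin-SA. Relative to Mbp of the same library, Ermn was at 3.56% ± 0.177 (SD, n = 4) in Saline-Saline and at 2.09% ± 0.385 in Saline-SA, without overlap. Mag was at 8.53% ± 0.414 and 5.53% ± 0.836, Klk6 at 1.62% ± 0.223 and 1.01% ± 0.117, Cldn11 at 13.6% ± 0.0952 and 10.4% ± 1.21, and Mog at 5.20% ± 0.341 and 4.20% ± 0.449, each without overlap of the 4 and 4 libraries. For these 5 genes the exact permutation test of the log2 ratio, 2-sided, gave p = 0.0286, the smallest that 4 against 4 allows. Adjusted over the 8 genes of this comparison alone, it was 0.0458. The ratios were chosen after the values had been seen, and Mbp had the smallest difference of the 9 between these groups (-0.10 log2). The p-values therefore describe differences already seen and are no separate support for them. The ratios of Mobp, Cnp and Mal to Mbp overlapped, with exact permutation p-values of 0.143, 0.114 and 0.171. Between Heroin-SA and Saline-SA all 8 ratios overlapped, and Cnp had the smallest exact permutation p, 0.0571 (0.456 adjusted), at 12.1% ± 1.18 of Mbp against 15.3% ± 2.48. Within the injection experiment the ratios that did not overlap lay above those of Saline-Saline. Ermn had 4.20% to 5.11% of Mbp in LPS-Saline against 3.30% to 3.70%, and Mobp was also higher there without overlap. Cldn11 had 14.6% to 16.4% in Saline-Heroin against 13.5% to 13.7%, and was also higher without overlap in LPS-Heroin, where the highest library had 16.9%. Each of these had an exact permutation p of 0.0286, and none passed after adjustment over the 8 genes (0.114 for Ermn and Mobp, 0.182 and 0.229 for Cldn11). The other 20 ratios overlapped. A ratio shows that genes differed unequally, and not which of them stayed put.

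**Figure D3:**
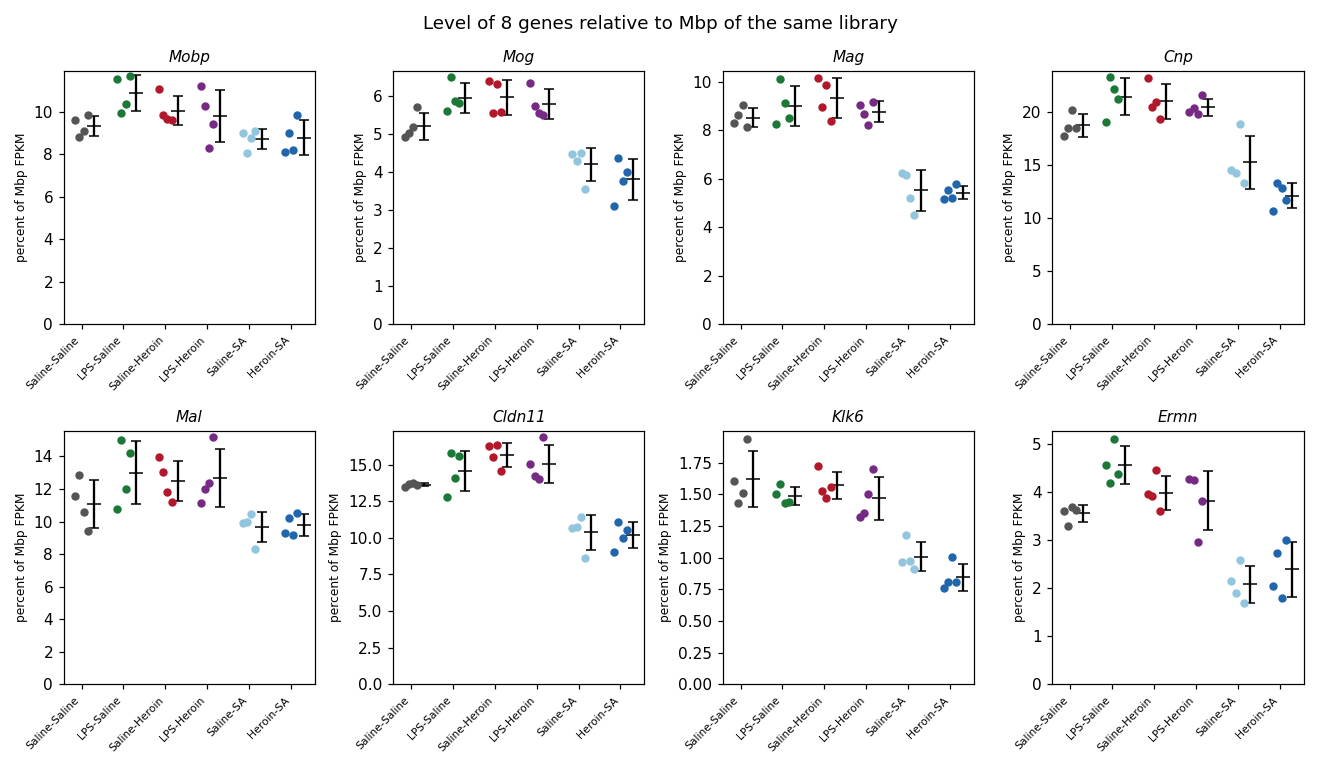
Level of 8 genes as a percentage of the Mbp level of the same library (vertical axis, linear, from 0) in the 6 groups (horizontal axis). Points are libraries and the black mark with its bar is the mean ± SD. Ermn drops from 3.56% in Saline-Saline to 2.09% in Saline-SA, while Mobp, at 9.34% and 8.74%, overlaps.

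The rest of the oligodendrocyte program was read from lists written with general knowledge: myelin proteins other than the 9, enzymes of myelin lipids and metabolites, junction and transport proteins, transcription factors, and genes of progenitors and forming oligodendrocytes. In Saline-SA against Saline-Saline, other myelin proteins had 6 of 11 called lower and 1 higher, with a median of -0.46 log2 where all genes had 0.008. Among those called, Tppp, a tubulin-binding protein of oligodendrocytes, had -1.12 (SE 0.13), and Car2, Tspan2, Opalin and Gpm6b between -0.46 and -0.51, whereas the small heat shock protein Cryab was higher (0.45, SE 0.17). Of the genes on the enzyme list 5 of 9 were called lower, not all of them established enzymes of myelin. They were Ugt8, which makes galactosylceramide and was the most abundant (-0.68), Fa2h, which hydroxylates its fatty acid (-0.45), Aspa, which cleaves N-acetylaspartate (-0.64), Enpp2 or autotaxin (-0.97) and Plcl1 (-0.73).

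Of the junction and transport genes, 7 of 11 were called lower between the control groups. Gjc3, a connexin of oligodendrocytes, fell from 24.5 ± 4.15 FPKM (SD, n = 4) to 6.67 ± 2.25 (log2 -1.93, SE 0.27, limma adjusted p = 0.00186), and Kcnj10, the inward rectifier that astrocytes also make, from 29.1 ± 2.39 to 12.7 ± 1.30 FPKM (-1.19, SE 0.09). Gpr37 (-0.81), the lactate transporter Slc16a1 (-0.70), transferrin Tf (-0.66), the adhesion molecule Cntn2 (-0.63) and the connexin Gjb1 (-0.46) were also called lower. Of the transcription factors 2 of 10 were called, Olig2 (-0.66, SE 0.15) and St18 (-0.81, SE 0.24), while Olig1, the most abundant, had 132 ± 23.8 FPKM in Saline-Saline and 114 ± 3.98 in Saline-SA and was not called. Among genes of progenitors and forming oligodendrocytes 5 of 9 were called lower, namely Tnr (-1.69), Gpr17, which marks cells about to differentiate (-1.35), Enpp6 (-0.85), Sox6 (-0.83) and Pdgfra, the PDGF receptor of progenitors (-0.42). Bcas1, the most abundant of this list, had a mean of 120 FPKM in both groups. Genes of other cells were called as well. The astrocyte transporter Slc1a2 had -1.77 and the water channel Aqp4 -0.48 (2 of 8), the microglial genes Cx3cr1 and Itgam -0.89 and -0.99 (2 of 8), and the endothelial genes Cldn5 and Flt1 0.50 and 0.43 (2 of 5, higher). With 14.3% of all genes called lower, differences in this comparison were not limited to oligodendrocytes.

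Within the injection experiment few genes of these lists were called. In LPS-Saline against Saline-Saline Fa2h (-0.41, SE 0.16), Gamt, an enzyme of creatine synthesis (-0.43, SE 0.11), and Tf (-0.43, SE 0.14) were called lower and none higher, and the medians of the 5 lists lay between -0.06 and -0.24. Saline-Heroin against Saline-Saline had more, among them the myelin protein Opalin (-0.55, SE 0.20), the connexins Gjb1 (-0.61, SE 0.22) and Gjc3 (-0.53, SE 0.23), Tf (-0.50, SE 0.20) and the transcription factors Sox10 (-0.58, SE 0.17) and Nkx2-2 (-0.62, SE 0.24). Sox10, the factor that drives myelin genes, had 41.2 ± 6.45 FPKM (SD, n = 4) in Saline-Saline. It had 28.0 ± 7.04 FPKM in Saline-Heroin and 29.6 ± 5.85 FPKM in LPS-Heroin. In LPS-Heroin against Saline-Saline Sox10 (-0.49, SE 0.16) and Nkx2-2 (-0.76, SE 0.23) were the only genes of the 5 lists called. In the heroin effect over 16 libraries these factors and Gjc3 were called lower (-0.39, -0.49 and -0.49). No adjusted p was under 0.05 for any of them by limma, the smallest being 0.267 for Nkx2-2 in LPS-Heroin.

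Markers of nearby tissue differed between the same libraries. In LPS-Heroin against Saline-Saline 5 of 6 genes of cortical glutamatergic neurons were called higher, beside 2.99% of 15134 genes tested. Their summed levels were 348 to 441 FPKM against 92.2 to 273. The septal gene Zic4 was called lower there (-1.52, SE 0.67), beside 2.44% of all genes. Of 7 septal and ventral forebrain genes, 6 were below 0 against Saline-Saline in each of LPS-Saline, Saline-Heroin and LPS-Heroin. The medians were -0.88, -0.43 and -0.71 log2 in that order. In LPS-Saline and Saline-Heroin the cortical sums were 115 to 381 and 154 to 427 FPKM and none of the 6 genes was called. Choroid plexus and ependyma genes summed to 1.36 to 345 FPKM in Saline-Saline, 1.74 to 2.99 in LPS-Saline, 2.80 to 6.23 in Saline-Heroin and 1.77 to 31.1 in LPS-Heroin. Their part in the lower myelin values was not tested.

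The remaining calls of the 5 lists were scattered. Opalin (0.45, SE 0.19) and the signal protein Bmp4 (0.64, SE 0.24) were higher in LPS-Heroin than in Saline-Heroin, and no gene was called in LPS-Heroin against LPS-Saline. In the LPS effect Cryab was lower (-0.41, SE 0.15) and Bmp4 higher (0.53, SE 0.19). The interaction was called for Opalin (0.72, SE 0.28), Gamt (0.59, SE 0.24), Tf (0.69, SE 0.26) and C1ql1, a progenitor gene (0.60, SE 0.18). In Heroin-SA against Saline-SA Tppp (0.54, SE 0.18), Cryab (0.73, SE 0.17) and Tnr (0.80, SE 0.32) were higher and C1ql1 lower (-0.51, SE 0.13). Cryab had 66.1 ± 4.96 FPKM (SD, n = 4) in Saline-SA and 113 ± 33.5 in Heroin-SA. The list of Schwann cell genes had Egr2 called in 6 of the 10 fits, among them the heroin effect (-1.48, SE 0.32). Egr2 is also an activity gene of neurons.

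**Figure D4:**
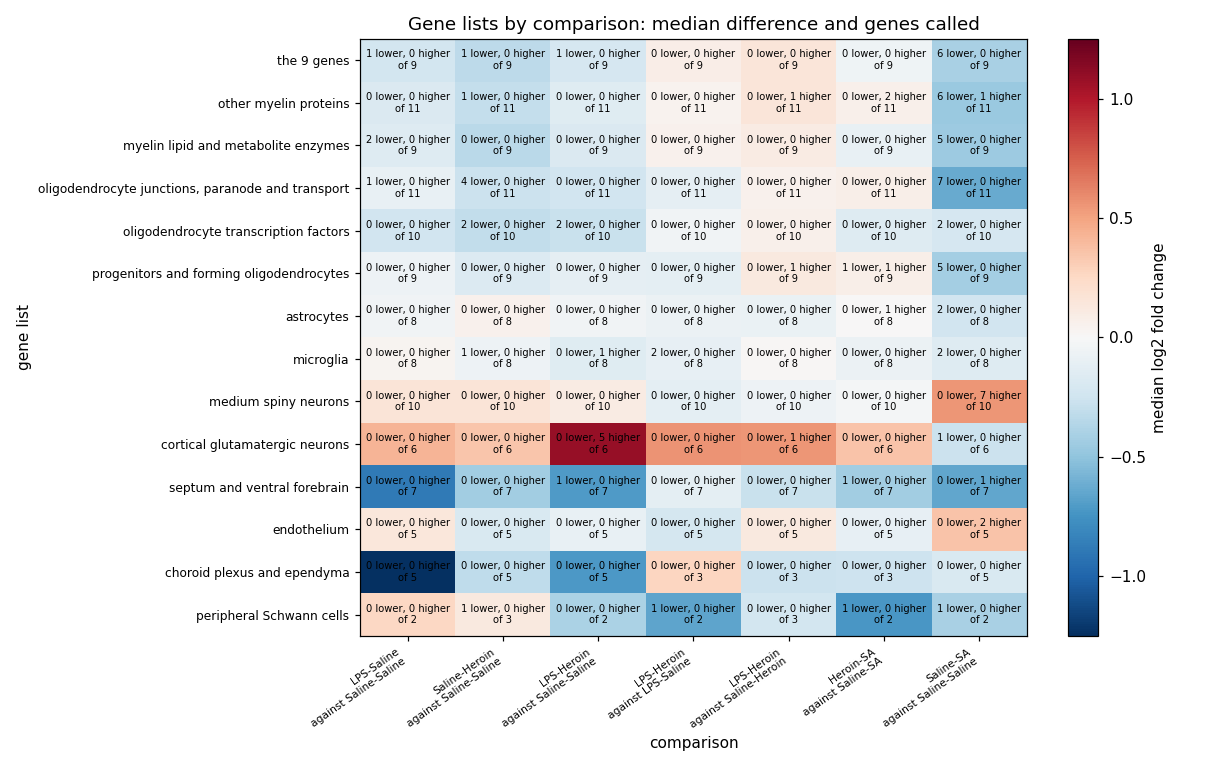
Median log2 fold change of 14 gene lists (vertical axis, colour) in 7 comparisons between groups (horizontal axis), with the numbers called lower and higher of the genes tested. Of the 7 comparisons, Saline-SA against Saline-Saline had the lowest median for the 9 genes and for the lists of myelin, enzyme and junction genes. Septal and ventral forebrain genes had a lower median there (-0.65), and medium spiny neuron genes had 7 of 10 called higher.

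The variation of the 9 genes between rats of the same group was largely shared. With group means removed, the 36 pairs of genes correlated across the 24 libraries with a median r of 0.845, from 0.579 (Klk6 and Ermn) to 0.944. These correlations share libraries and the scaling of each library, and are a description. In the 16 injection libraries the median was 0.905 and in the 8 SA libraries 0.629, where the lowest pair had -0.0807. The SD of a gene within groups was 0.260 (Cnp) to 0.352 (Ermn) on the log2 scale. After the mean of the other 8 genes was subtracted, it was 0.0639 for Cldn11, which followed the others most closely, and 0.197 for Ermn and 0.169 for Klk6, which followed them least.

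A few rats carried this spread. Saline-Heroin replicate 4 stood above its group by 0.51 log2 on average over the genes, with all 9 above the group mean, LPS-Saline replicate 1 by 0.44 and Heroin-SA replicate 4 by 0.28, again with all 9. Below their groups were Saline-Heroin replicate 1 (-0.42), LPS-Heroin replicate 4 (-0.39) and Saline-Saline replicate 3 (-0.36), with 0 of 9 above the mean in each. Saline-Saline replicates 1 and 2 stood at 0.25 and 0.24 with all 9 above. Each deviation is taken from the mean of its own group, so every group has libraries on both sides of 0. The deviations therefore do not bear on the effect of a treatment.

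**Figure D5:**
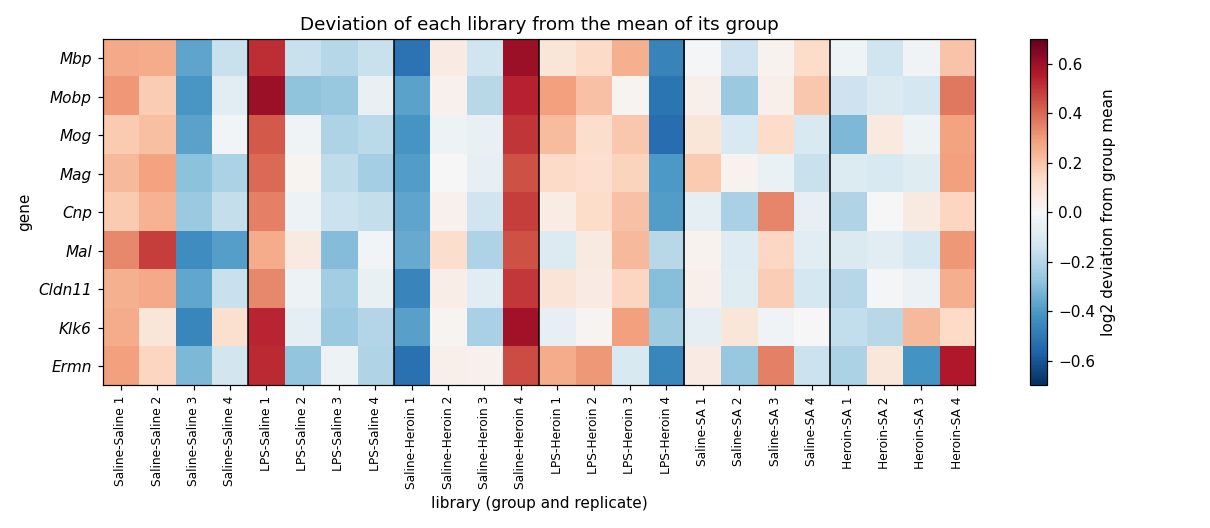
Deviation of each library from the mean of its group on the log2 scale (colour) for the 9 genes (vertical axis) and 24 libraries (horizontal axis), with lines between groups. Columns are mostly of 1 colour, such as Saline-Heroin 4 (0.51 on average) and Saline-Heroin 1 (-0.42).

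Of 12446 other genes with a mean of at least 1 FPKM, those most like the mean course of the 9 genes over the 24 libraries, group means removed, included Lpar1 (r = 0.958), Ugt8 (0.957), Pllp (0.954), Elovl1 (0.951), Car2 (0.949), Evi2a (0.947), Sept4 (0.942), Cd82 (0.936) and Slc44a1 (0.932). Gene by gene, the closest included S1pr5 for Mbp (0.948), Ugt8 for Mobp (0.908), Opalin for Mog (0.946), Slc44a1 for Mag (0.945), Pllp for Cnp (0.962), Lpar1 for Mal (0.879), Tmbim1 for Klk6 (0.911) and Insc for Ermn (0.938). The mean of the myelin enzyme list followed the 9 genes with r = 0.980, other myelin proteins with 0.969, transcription factors with 0.922 and junction and transport genes with 0.898, and that of progenitors and forming oligodendrocytes with 0.573. Genes of other cells had weaker values over the 24 libraries, with -0.320 for astrocytes, 0.305 for microglia, 0.302 for endothelium, -0.0269 for medium spiny neurons, -0.359 for septum and ventral forebrain, -0.0967 for choroid plexus and ependyma and -0.253 for Schwann cell genes. Cortical neuron genes had -0.194 over all 24 libraries, 0.0318 in the 16 injection libraries and -0.870 in the 8 SA libraries. Other lists differed between the experiments too, with -0.153 and 0.622 for medium spiny neurons, 0.436 and -0.319 for microglia and -0.464 and 0.239 for astrocytes in the 16 and the 8 libraries. Without the 2 farthest libraries the value for microglia was -0.0269.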

How the data were processed

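Total RNA of the NAc, core and shell, was reduced to polyadenylated RNA, made into directional libraries and sequenced by a provider. The submitters' processing notes name fastp, HISAT2, featureCounts and build rn6, with no versions, and the study used DESeq2 for its own comparisons. The authors deposited FPKM values for 32545 genes, normalized to gene length and library size, and no counts were used as deposited. The methods state 6 sequenced samples per group, and 4 per group were analysed here. Multiplied by gene length, 100% of the values gave whole reads within 0.05. Reads on genes, 12312878 to 18850240 per library, set the precision.

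Groups came from the labels. For each comparison, limma 3.58.1 in R 4.3.3 (limma-trend) was run on log2(FPKM + 0.1) of the compared groups' libraries alone, without covariates, for genes averaging 0.5 FPKM or more. Fold changes on this scale understate the change of low genes. The limits, an unadjusted p of 0.05 and 1.3-fold, are close to those of the study's pattern analyses.

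The 9 genes, the 13 other lists and the tests were chosen with earlier results of these data known. From each list, genes called in a comparison and the most abundant gene were named, apart from some results that are not reported here, and calls in lists of other cell types mostly as counts. Lhfpl3, Neurod2, Pecam1 and Foxj1 were not among the genes listed. Promoters came from RefSeq (GRCr8). The comparison of ratios to Mbp was chosen after the values had been seen. The fit of LPS-Saline against Saline-Saline alone was tested on simulated data, in which genes varied independently of each other. The simulation did not cover the main effects, the interaction or genes that vary together. Alternatives were other pseudocounts, filters, normalizations, fits, limma-voom on the recovered reads, a replicate block, and leaving out each library.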

Additional observations from a re-analysis of the deposited data

Results flagged for a closer look

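In 6 of 54 sets of 4 libraries, 1 library stood far from the others by Dixon's criterion, where chance flags about 5% of sets, or 2.7. Mbp was at 2624 FPKM in LPS-Saline replicate 1, a gap of 0.950 of the range. Heroin-SA replicate 4 stood above its group for Mobp (255 FPKM, 0.920), Mag (149 FPKM, 0.962) and Mal (271 FPKM, 0.904). LPS-Heroin replicate 4 stood below its group for Mog (79.2 FPKM, 0.830) and Mag (132 FPKM, 0.915). In these libraries the other genes of the 9 deviated in the same direction, so the 6 values are not independent of each other. No cause was tested.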

How the results depend on the processing

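Of 1809 values of single genes under alternatives, 1672 kept direction and call, 39 gained and 30 lost a call, and 68 uncalled values changed sign; no called value reversed. Counts of genes called lower moved from 1 to 2 in LPS-Saline against Saline-Saline with quantile normalization, with limma-voom and with the replicate block, by Mbp each time, and from 1 to 2 in Saline-Heroin against Saline-Saline with all 24 libraries in 1 fit and with limma-voom, again by Mbp. In LPS-Heroin against Saline-Saline the replicate block gave 0 in place of 1. Without the fold limit, Heroin-SA against Saline-SA had 2 in place of 0. In the interaction limma-voom called 1 in place of 0, Klk6. Leaving out single libraries gave 0 to 5 calls in LPS-Saline, 0 to 8 in Saline-Heroin, 0 to 1 in LPS-Heroin and 4 to 6 in Saline-SA, each against Saline-Saline, 0 to 1 in Heroin-SA against Saline-SA and 0 to 5 in the interaction. The replicate block gave 5 in place of 6 in Saline-SA against Saline-Saline. Same-numbered replicates did not deviate together strongly (correlations of -0.133 to 0.168), so no pairing by number was seen. Such correlations cannot exclude one. The cause of these moves was not tested. Klk6, with 269 to 893 reads per library, had the fewest reads of the 9 genes, and its counting error is the largest.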
